A study of Rattus norvegicus with 4 samples.

Results

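The genes described here are 10 endothelial and vascular adhesion genes, chosen by name from the 15553 genes named on the array. Vcam1, Icam1 and Sele encode adhesion molecules for leukocytes, Pecam1 and Cdh5 junction proteins, Egfl7 and Robo4 a secreted and a membrane-bound regulator of vessels, Kdr and Flt1 receptors for vascular endothelial growth factor (VEGF), and Vwf a clotting factor that endothelium stores in granules. They are on the array with 13 probes, of which 7, for 7 of the 10 genes, could be tested. By these probes Vcam1, Cdh5, Egfl7 and Vwf were lower in the colon mucosa of resveratrol-fed rats than in the control pool, Robo4 and Flt1 were higher, and Icam1 did not pass the test. Sele, Pecam1 and Kdr were not tested, the former pair because they were too dim and Kdr because its spots were flagged as outliers on 3 arrays.

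Endothelial cells line blood vessels and form the surface that leukocytes must cross to enter an inflamed tissue. Inflammatory cytokines switch on E-selectin (Sele), VCAM-1 and ICAM-1 in them, in large part through the transcription factor NF-kB: E-selectin slows leukocytes, and VCAM-1 and ICAM-1 bind their integrins and arrest them. Pecam1 and Cdh5 (VE-cadherin) hold the cells together at their junctions. VEGF receptors drive vessel growth and permeability, and Robo4 is known for stabilising vessels against VEGF.

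The tissue was colon mucosa from inbred F344 rats, with colitis induced by 5% dextran sodium sulphate (DSS), a compound that injures the colonic epithelium, given in drinking water for 5 days in every rat. The treated rats had first been fed resveratrol (a polyphenol of grapes, 1 mg per kg each day over 20 days), and the controls had standard chow, with 8 rats in each group. Each of 4 two-colour Agilent arrays held RNA pooled from 2 resveratrol rats in the Cy5 channel and a pool of DSS control RNA in Cy3, and the dyes were never exchanged. Values are log2 ratios of Cy5 over Cy3, so a positive value means higher with resveratrol, and values after ± are standard errors of the limma fit over all probes.

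Arrays 1 and 2 lay on slide 1 and arrays 3 and 4 on slide 2. Spots well above background made up 44.1% to 49.2% of each array in Cy5 and 42.8% to 57.1% in Cy3. The scanner flagged 3.45% and 4.68% of spots as outliers on slide 1 against 11% and 13.7% on slide 2. Among bright spots, with a mean log2 intensity above 12, these shares were 15.5% and 16.4% against 47.4% and 60.1%. Robo4 and, on slide 2, Egfl7 lay in this bright range, though no spot of either was flagged. Their ratios still depended on how flagged spots were treated. The sources used here do not say if the arrays shared a single control pool. It counts as 1 control sample, so the test leaves out its spread, and p-values measure the spread between these 4 arrays.

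Of all 18869 probes tested, 47.1% passed at an adjusted p under 0.05 (limma, Benjamini-Hochberg). Of 9441 genes, each taken by its brightest probe, 19.6% were lower and 25.7% higher. Against that background, 4 of the 7 tested members were lower and 2 higher. Their median log2 ratio was -0.40, against 0.02 over all genes. The members are few and were chosen by name, so these counts describe them and no more. The balance of all calls depended on the scaling: 4597 probes were higher and 4289 lower with loess, and 6852 and 1839 with median centring, which put the median of all probes at 0.20 in place of -0.02.

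**Figure D1:**
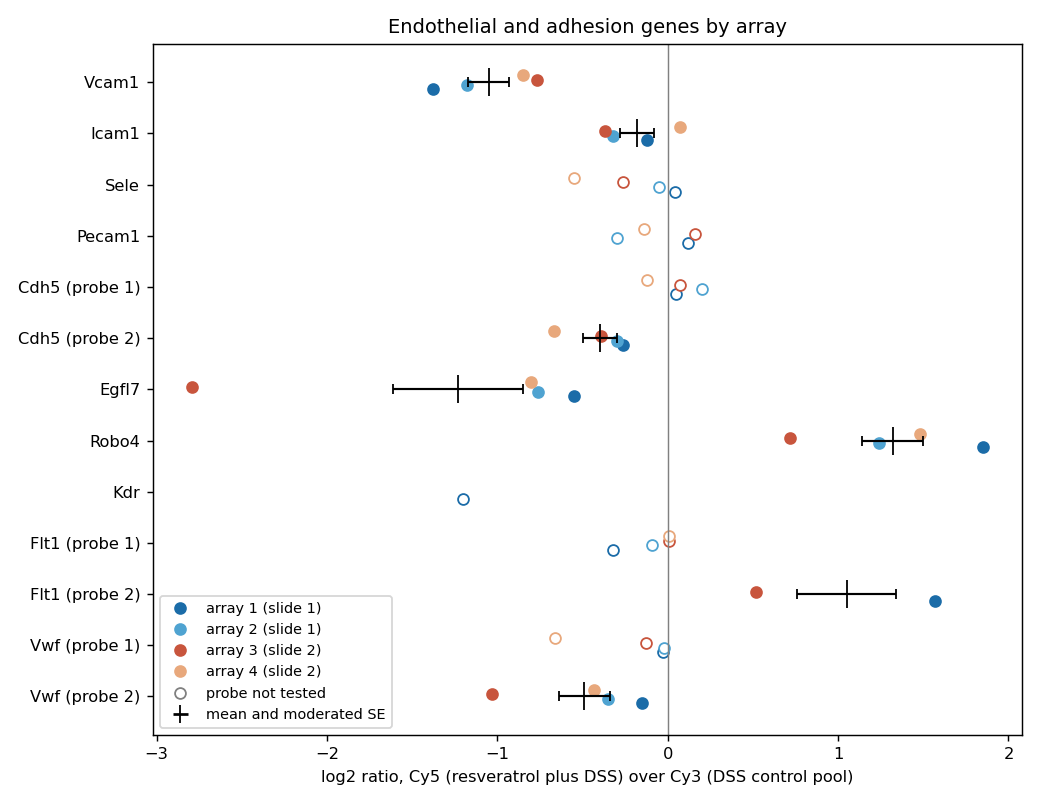
Log2 ratio (Cy5, resveratrol plus DSS, over Cy3, DSS control pool) on each array for the 13 probes of the 10 genes. Filled points are tested probes, with the mean and its moderated standard error in black, and open points are probes that were not tested. The 4 Vcam1 points lie below 0, between -1.38 and -0.77, and the 4 Robo4 points above it, between 0.72 and 1.85.

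Vcam1, the ligand of integrin alpha4 on monocytes and lymphocytes, was lower on every array. Its log2 ratios on arrays 1 to 4 were -1.38, -1.18, -0.77 and -0.85. The slide 1 pair was lower than the slide 2 pair, with means of -1.28 and -0.81, and no array came near 0. The mean was -1.05 ± 0.12 (n = 4 arrays, limma adjusted p = 0.00492), on a resveratrol signal well above background on 1 of the 4 arrays, so its size is not exact. With the standard error multiplied by the square root of 2, the adjusted p was 0.0327. That factor stands for a control as variable as the mean of the 4 arrays. A single pool as variable as 1 array would need a larger factor, which was not tried. Without any normalization within arrays the Vcam1 mean was -0.53 (adjusted p = 0.215), the single alternative of 19 in which Vcam1 did not pass.

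The signals behind that ratio were low. In the normalized log2 signal, Vcam1 in the control pool read 8.68, 8.59, 8.49 and 8.94 on arrays 1 to 4, and in the resveratrol channel 7.31, 7.40, 7.72 and 8.09. The control signal was well above background on all 4 arrays and the resveratrol signal on array 4 alone. The pool varied over 0.45 between arrays, and the 2 channels did not overlap. In the authors' deposited value table the mean Vcam1 log2 ratio was -1.68.

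The Vcam1 probe lies at chr2:212240449-212240508 on the minus strand of the rat build rn3, as the array files give it. Its first 30 bases and the 250 bases before the Vcam1 start site (RefSeq, build GRCr8, chr2:206742784-206743033, minus strand) are shown because the promoter is the part of this gene known to answer to NF-kB. Capitals mark each match to the letters GGNNTTNCC on either strand, a shortened form of an NF-kB site.
Vcam1 probe: acggggacgtgtttcttcatcaggatcttg
Vcam1 promoter: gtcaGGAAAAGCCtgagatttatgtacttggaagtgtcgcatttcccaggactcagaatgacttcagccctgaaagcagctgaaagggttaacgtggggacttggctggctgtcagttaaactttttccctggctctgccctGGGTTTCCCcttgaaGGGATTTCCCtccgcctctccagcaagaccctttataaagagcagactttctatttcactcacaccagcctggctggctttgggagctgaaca

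This window holds 4 matches, at positions -246 to -238, -108 to -100, -93 to -85 and -92 to -84 before the start site, the last pair overlapping. The letters were settled on after the promoters of Vcam1 and Icam1 had been read, so their matches there are a description. Among 33469 rat promoter windows of the same length, 13.6% hold at least 1 match and 1.83% hold 2 or more. The letters TATAAA, searched on the gene's strand, lie at -60 to -55 and are found in 8.06% of windows.

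Icam1, the ligand of the beta2 integrins of neutrophils and other leukocytes, was measured with more spots than any other member, and it did not pass the test. Its probe (rn3 chr8:20051730-20051789, plus strand) is spotted 10 times on each array. The array means were -0.12, -0.32, -0.37 and 0.07. Arrays 1 to 3 lay below 0 and array 4 just above it. The mean was -0.18 ± 0.10 (n = 4 arrays, limma adjusted p = 0.177), with a 95% interval from -0.44 to 0.07.

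The repeated spots separate the error of a spot from that between arrays. Spots of the same array had standard deviations of 0.10, 0.14, 0.16 and 0.13 in log2 ratio on arrays 1 to 4, and the 4 array means had one of 0.20. Spots below 0 numbered 9 of 10 on array 1, 10 of 10 on array 2, 9 of 9 on array 3, where a flagged spot was left out, and 3 of 10 on array 4. The arrays thus differed among themselves in the sign of most spots. Icam1 was well above background in each channel on all 4 arrays, unlike Vcam1, and it passed in none of 20 alternatives, where the adjusted p ran from 0.0869 to 0.756. The lowest Icam1 array mean, -0.37, stood above the highest Vcam1 ratio, -0.77, so the arrays of these genes did not overlap, and the difference itself was not tested.

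**Figure D2:**
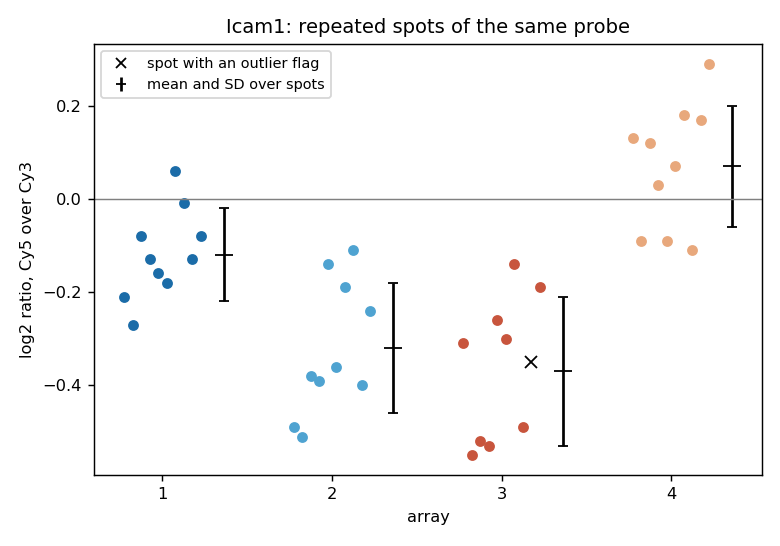
Log2 ratio (Cy5 over Cy3) of each of the 10 Icam1 spots on each array, with the mean and standard deviation over spots beside them. A cross marks the spot with an outlier flag, which was left out. Array means run from -0.37 on array 3 to 0.07 on array 4, and the standard deviations over spots from 0.10 to 0.16.

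The Icam1 promoter is shown for comparison with that of Vcam1 (RefSeq GRCr8, chr8:27829595-27829844, plus strand), with the same letters in capitals.
Icam1 promoter: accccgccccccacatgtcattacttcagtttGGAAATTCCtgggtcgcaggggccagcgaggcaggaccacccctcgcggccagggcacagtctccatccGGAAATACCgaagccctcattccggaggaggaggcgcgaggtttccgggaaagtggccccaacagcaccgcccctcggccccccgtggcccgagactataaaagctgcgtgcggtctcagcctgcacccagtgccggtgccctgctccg

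It holds 2 matches, at -218 to -210 and -149 to -141, and TATAAA at -53 to -48. Promoter windows were found for 7 of the 10 genes. Kdr has 1 match to GGNNTTNCC, at -133 to -125, and Egfl7, Robo4, Flt1 and Sele have 0. Apart from Vcam1 and Icam1, TATAAA was found in the Flt1 window, at -75 to -70.

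Sele, the endothelial selectin, reached a level well above background on 0 arrays in Cy5 and 0 in Cy3. Its unfiltered log2 ratios were 0.04, -0.05, -0.26 and -0.55. They spread from just above 0 to well below it on signals too dim to measure the transcript, so a difference was not detectable. In the fit with no filter on dim probes the mean was -0.21 ± 0.11 (limma adjusted p = 0.198). Of the partners of these molecules, the selectin gene Selp, the integrin genes Itgal, Itgam, Itgb2 and Itga4 and the selectin ligand Selplg were on the array and were not tested either.

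Among 22 leukocyte adhesion and trafficking partners, 12 were tested, and 5 were lower, 1 was higher and 6 were not called, with a median of -0.25. These shares, 41.7% lower and 8.33% higher, stand beside 19.6% and 25.7% of all genes. Lower were Itgb7, an integrin subunit of gut-homing lymphocytes (-0.68 and -0.58 on the 2 slide 1 arrays, mean -0.63 ± 0.13, adjusted p = 0.0265), and Madcam1, its partner on gut vessels (-0.31, -0.38 and -1.07 on arrays 1 to 3, mean -0.59 ± 0.18, adjusted p = 0.0468). F11r, a junctional adhesion molecule that epithelium also makes, was higher (0.41, 0.55, 0.41 and 0.18, mean 0.39 ± 0.09, adjusted p = 0.0212). The Itgb7 and Madcam1 values lack the arrays on which their spots were flagged. Both missed the threshold under median centring, with adjusted p of 0.323 and 0.101, and the list then had 4 higher and 1 lower.

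Of 19 genes of the NF-kB pathway and its inducers, 14 were tested and 3 were lower, 0 higher. These 21.4% lie near the 19.6% of all genes, while the 0% higher stand against 25.7%. Ccl2, a monocyte chemoattractant, had log2 ratios of -1.92, -1.83, -1.33 and -1.79 (mean -1.72 ± 0.12, adjusted p = 0.00388), at least 2.15-fold lower, since the resveratrol channel was well above background on 0 arrays. Il1b, an endothelium-activating cytokine, had -0.87, -0.85 and -2.27 on arrays 1 to 3 (mean -1.33 ± 0.31, adjusted p = 0.0246, and 0.0962 with the wider standard error). The median of the 14 genes was -0.09. A lower bound of this kind compares the mean of the control channel with the dimmest signal that the scanner still called well above background, and dye bias can enter it.

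Pecam1 (CD31), the usual marker of endothelium, could not be tested. Its probe (rn3 chr10:96072087-96072146, minus strand) was well above background in Cy3 on 1 array and in Cy5 on none. Log2 ratios were 0.12, -0.30, 0.16 and -0.14, 2 on either side of 0. Without a filter on dim probes the mean was -0.04 ± 0.10 (adjusted p = 0.785). The amount of endothelium in the samples was therefore not measured through Pecam1.

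Cdh5, the cadherin of endothelial junctions, was lower by a small amount. Its tested probe spans 1435 bases of the genome for its 60 bases, so it crosses at least 1 intron (rn3 chr19:788852-790286, minus strand), and is shown whole for that reason.
Cdh5 probe 2: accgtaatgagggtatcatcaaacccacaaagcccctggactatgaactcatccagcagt

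Log2 ratios were -0.26, -0.30, -0.39 and -0.67. All 4 arrays lay below 0, array 4 the furthest. The mean was -0.40 ± 0.10 (limma adjusted p = 0.0229), 1.32-fold lower, with the resveratrol channel well above background on 2 of 4 arrays and the control channel on 4. The other Cdh5 probe (rn3 chr19:779103-779162) was well above background in no channel, and its ratios of 0.05, 0.20, 0.07 and -0.12 straddled 0. The Cdh5 call was lost with the wider standard error (adjusted p = 0.0962), with median centring (mean -0.32, adjusted p = 0.117), on slide 2 alone (mean -0.53, adjusted p = 0.0739) and without array 1, 2 or 4 (adjusted p = 0.0606, 0.0712 and 0.0512), and it turned to 0.13 (adjusted p = 0.795) with no normalization.

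Genes whose 4 ratios lay closest to a member's, among 7006 genes, were found by root mean square difference over the 4 arrays. For Vcam1 they were Smad6 (0.038), Tmem106c (0.046) and Slc22a15 (0.098), and for Cdh5 they included Mapk12 (0.045) and Cacna1d (0.062). With 7006 genes and 4 arrays some close matches arise for any gene.

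Vwf, the clotting factor of endothelial granules, was lower and stood close to the threshold. Its tested probe (rn3 chr4:162054469-162054528, plus strand) gave -0.15, -0.35, -1.03 and -0.43. Array 3 was the lowest and all 4 were below 0. The mean was -0.49 ± 0.15 (limma adjusted p = 0.0426), 1.40-fold lower, and it passed in 10 of 20 alternatives. Without array 3 it was -0.31 (adjusted p = 0.0474), without array 1, 2 or 4 the adjusted p was 0.059, 0.0906 and 0.0887. Taking the slide as a random block gave 0.0625. Median centring gave -0.25 (adjusted p = 0.245) and the wider standard error an adjusted p of 0.145, and with no normalization the mean was 0.20.

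Both Vwf channels were brighter on slide 2. The normalized log2 control signal was 8.34 and 8.71 on slide 1 and 10.39 and 9.43 on slide 2, a rise of 1.39, while the median rise over all tested probes was 0.11. Another Vwf probe, which spans 490 bases (rn3 chr4:162098933-162099422), was too dim to test and read -0.03, -0.02, -0.13 and -0.66. Its lowest array was 4 and that of the tested probe was 3.

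Of 14 further granule and coagulation genes, 5 were tested and 1 was lower, with a median of -0.26. That is 20% lower and 0% higher, against 19.6% and 25.7% of all genes. Thbd, thrombomodulin, an anticoagulant receptor of the endothelial surface, read -1.57, -1.45, -0.95 and -2.11. Every array lay below 0 (mean -1.52 ± 0.18, adjusted p = 0.00492), at least 1.53-fold lower, as its resveratrol signal was well above background on 0 arrays. Thbd is also made by other cells, among them monocytes.

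Egfl7, a protein that endothelium secretes into the vessel wall, was lower, by an amount that rests on array 3. Its log2 ratios were -0.55, -0.76, -2.79 and -0.80. Arrays 1, 2 and 4 lay close together and array 3 far below. The mean was -1.23 ± 0.38 (limma adjusted p = 0.0401), and without array 3 it was -0.71 (adjusted p = 0.00569). Slide 1 alone gave -0.66 (adjusted p = 0.00219) and slide 2 alone -1.80 (adjusted p = 0.0644).

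The Egfl7 signal itself rose between slides in each channel. The normalized log2 signal of the control pool was 10.64 and 11.40 on arrays 1 and 2 and 15.18 and 14.12 on arrays 3 and 4. In the resveratrol channel it was 10.09 and 10.64, then 12.39 and 13.32. The uncorrected control signal was 970, 2951, 19285 and 20763 units, so the rise was there before normalization. Over all tested probes, the median control signal rose by 0.11 between slides against 3.63 for Egfl7, and 4 tested probes rose by more. The ratio therefore compares channels within arrays whose levels of Egfl7 lay far apart between slides.

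The Egfl7 ratios also moved with the treatment of flagged spots, though no spot of its own was flagged. With the flagged spots kept, the arrays read -0.46, -0.63, -0.44 and -0.14, a mean of -0.42 (adjusted p = 0.0153), and with them kept in the loess curve alone the mean was again -0.42. Array 3 then stood within the others, and every array was still below 0. Median centring gave -0.66. Without normalization the arrays read 0.97, -0.02, -1.83 and 0.04, and the mean was -0.21 (limma adjusted p = 0.657). The wider standard error gave an adjusted p of 0.139 and the slide as a random block 0.0603.

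The first 30 bases of the Egfl7 probe (rn3 chr3:4769439-4769498, plus strand) are shown because they hold a run of G, in capitals, a feature picked out after the values were seen.
Egfl7 probe: catggggaGGGGGGtcttgtgtggctctta

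A run of 6 G was in 84 tested probes. Their median rise in the control signal from slide 1 to slide 2 was 0.16 and the highest of the others was 2.01, below the 3.63 of Egfl7. No other probe with the run rose as far as Egfl7.

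**Figure D3:**
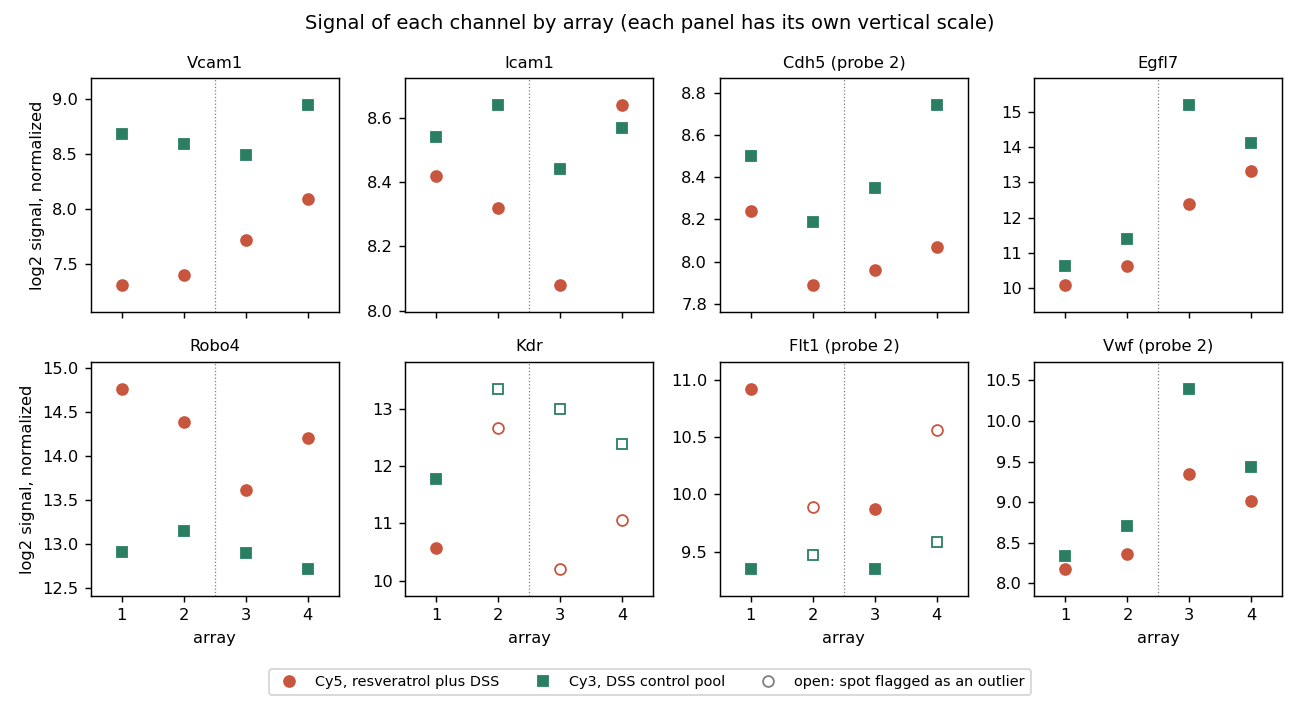
Normalized log2 signal of Cy5 (resveratrol plus DSS) and Cy3 (DSS control pool) on arrays 1 to 4 for 8 probes, each panel on its own scale, with a dotted line between the slides and open symbols for spots flagged as outliers. The control signal of Egfl7 rises from 10.64 on array 1 to 15.18 on array 3, while that of Robo4 stays between 12.72 and 13.15.

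Robo4, a receptor of the Roundabout family known from endothelium, was higher on every array. Its log2 ratios were 1.85, 1.24, 0.72 and 1.48. Array 3 was the lowest and array 1 the highest, and none came near 0. The mean was 1.32 ± 0.18 (limma adjusted p = 0.00587), a 2.50-fold higher level. Robo4 passed in all 20 alternatives in which it was tested, with means from 1.10 to 2.38.

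The Robo4 signal was bright in each channel. Its mean log2 intensity of 13.55 was the highest of the 13 member probes. Egfl7 stood at 12.4, and Vcam1, the tested Cdh5 probe and Pecam1 at 8.15, 8.24 and 7.68. Which cells gave the Robo4 signal was not tested. The control pool read 12.91, 13.15, 12.90 and 12.72 in log2 signal and the resveratrol channel 14.76, 14.39, 13.62 and 14.20, with no saturated spot. The pool thus varied over 0.44 between arrays, and the 2 channels did not overlap. With the wider standard error the adjusted p was 0.0367. Keeping the flagged spots gave 2.14, 1.38, 2.82 and 2.16, a mean of 2.13, in which array 3 moved from the lowest to the highest. No spot of Robo4 itself was flagged, and with flagged spots kept in the loess curve alone the mean was again 2.13. It was 1.93 with median centring. The direction of Robo4 was steady over these settings and its size was not.

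The Robo4 probe (rn3 chr8:38673425-38673484, plus strand) is shown whole, since it has no stop triplet in any of the 3 forward frames. The capitals mark the hexamer that, of those in the probe, went with the highest ratios in other probes.
Robo4 probe: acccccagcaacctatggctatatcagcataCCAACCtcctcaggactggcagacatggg

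The 300 other tested probes that carry CCAACC had a median log2 ratio of 0.27, against -0.02 for all probes, and 41.3% of them were higher and 13.7% lower. By that median the hexamer ranked 27 of 4068. The median over all the hexamers of the Robo4 probe was -0.06. The part of such letters in the Robo4 ratio was not tested, and the hexamer was picked for its median. Picked the same way, the top hexamers of Vcam1, Icam1, Cdh5, Egfl7 and Vwf had medians of 0.19, 0.25, 0.16, 0.21 and 0.23. Of the other probes with them, 36.2%, 40.8%, 33.3%, 31.9% and 36.6% were higher. A raised median was thus no trait of the higher members alone.

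Flt1 (VEGF receptor 1), which binds VEGF and can hold it away from Kdr, was higher on the 2 arrays that measured it. The probe spans 17098 bases of the genome (rn3 chr12:7954639-7971736, plus strand) and so crosses at least 1 intron, and is shown whole with its highest-ranked hexamer in capitals.
Flt1 probe 2: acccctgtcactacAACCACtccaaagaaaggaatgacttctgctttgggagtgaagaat

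Log2 ratios were 1.57 on array 1 and 0.52 on array 3, and the spots on arrays 2 and 4 carried outlier flags. The mean was 1.05 ± 0.29 (n = 2 arrays, limma adjusted p = 0.0477). With the flagged spots kept, the ratios were 1.65, 0.49, 0.90 and 1.48, all above 0, with a mean of 1.13 (adjusted p = 0.00333). With the wider standard error the adjusted p was 0.143, and the call was lost under 5 further alternatives as well. The hexamer AACCAC ranked 4 of 4068, and the 364 other probes with it had a median of 0.35, with 45.1% higher and 12.4% lower. It was picked for that median, as for the other members, and the median over all the hexamers of this probe was 0.00.

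A second Flt1 probe told otherwise. It lies at rn3 chr12:8065567-8065626, towards the far end of the gene in its direction of reading, and read -0.32, -0.09, 0.01 and 0.01. It was well above background on 1 array in Cy5 and 2 in Cy3, and so was not tested. In the fit with no filter on dim probes its mean was -0.10 ± 0.09 (adjusted p = 0.44). The 2 probes of Flt1 therefore do not give the same ratio, and which of them reports the receptor transcript was not tested.

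Kdr (VEGF receptor 2), the main signalling receptor for VEGF on endothelium, was bright and yet not tested. The spot on array 1 gave -1.20, and those on arrays 2, 3 and 4 carried outlier flags. With the flagged spots kept the ratios were -1.05, -0.53, -1.52 and -0.52. All 4 lay below 0, and the fit that keeps flagged spots gave a mean of -0.91 ± 0.18 (limma adjusted p = 0.00513). In that fit 64.3% of 20409 probes passed, against 47.1% of 18869 with flagged spots left out. Before normalization the Kdr ratios were 0.40, 0.07, -2.17 and -0.19, so their sign on arrays 1 and 2 depended on the normalization. With flagged spots kept, the tested Flt1 probe lay above 0 and Kdr below it on each array, while the other Flt1 probe read -0.31, -0.09, 0.02 and 0.01; whether the genes differ was not tested.

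The log2 control signal of Kdr was 11.77, 13.34, 13.00 and 12.38 and the resveratrol signal 10.57, 12.66, 10.21 and 11.06. The control signal spread over 1.57 between arrays and the resveratrol signal over 2.45, so the level of each channel was less steady than for Robo4. The files give no genome position for this probe.

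Around these receptors, 28 genes of VEGF, angiopoietin, Notch and Slit signalling were listed and 15 were tested. Of these, 3 were lower and 1 higher, with a median of -0.18. The shares, 20% and 6.67%, stand beside 19.6% and 25.7% of all genes. Tek, the angiopoietin receptor, read 0.03, -0.58, -1.15 and -0.64 (mean -0.58 ± 0.19, adjusted p = 0.0441). Hif1a, a subunit of the oxygen-sensing factor, read -0.82, 0.05, -0.99 and -0.68 (mean -0.61 ± 0.18, adjusted p = 0.0354), while another Hif1a probe had a mean of 0.32. Unc5b, a partner receptor of Robo4 in vessels, was higher, at 0.83, 0.42, 0.37 and 0.65 (mean 0.57 ± 0.11, adjusted p = 0.0112). Unc5b, like Robo4, lay above 0 on each array, and 11 of the 15 were not called. With median centring the group had 2 higher and 1 lower, and Hif1a (-0.14, adjusted p = 0.526) was no longer called.

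Other endothelial markers, 32 genes, were mostly not called. Of 15 tested, 4 were lower and 1 was higher, shares of 26.7% and 6.67% against 19.6% and 25.7% of all genes, with a median of -0.18. The lower ones included Sox7, an endothelial transcription factor (-0.56 and -0.65 on slide 1, mean -0.60 ± 0.13, adjusted p = 0.029). Its relative Sox18 was higher (1.21, 0.69 and 0.24 on arrays 1 to 3, mean 0.72 ± 0.20, adjusted p = 0.0378), while another Sox18 probe had a mean of -0.13. Tek is in this list too. With median centring 3 were lower and 2 higher, Sox7 (-0.25, adjusted p = 0.421) was no longer called and Sox18 was at 1.28. Of 8 lymphatic endothelial markers only Ccl21 (Ccl21b on the array), a chemokine with near-identical gene copies, was tested, and it was lower on slide 1 (-0.81 and -0.62, mean -0.71 ± 0.14, adjusted p = 0.0229). With median centring Ccl21 was at -0.22 (adjusted p = 0.491). Of the genes named here from the 6 vascular, adhesion and NF-kB lists, Ccl2 and Thbd still passed with the wider standard error (adjusted p = 0.0286 and 0.0327) and the others did not.

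Markers of other cells moved too, and a bulk sample cannot tell fewer cells of a type from less RNA per cell. Over all genes, 19.6% were lower and 25.7% higher. The shares lower were 90% of fibroblast, 66.7% of leukocyte, 87.5% of erythrocyte and platelet, and 33.3% of pericyte and smooth muscle markers. The shares higher were 0%, 0%, 12.5% and 11.1% in that order. Of 12 fibroblast markers 10 were tested and 9 were lower (median -0.99), led by Col3a1 at -2.30 and Col1a2 at -1.95. Of 17 leukocyte markers 12 were tested and 8 were lower (median -0.67), led by S100a8 at -3.17 and S100a9 at -2.06. Of 12 erythrocyte and platelet markers 8 were tested, and 7 were lower and 1 higher (median -0.62), led by Hbb-b1 at -3.28 and Hbb at -2.65, with Slc4a1 at 1.23, whose other probe was at -0.18; the globin genes are near-identical and their probes may share signal. Pericyte and smooth muscle markers had 3 lower and 1 higher of 9 tested (median -0.39), with Des at -1.40 (-0.44, -0.50, -1.48 and -3.19 by array, -0.47 on slide 1 alone), Lmod1 at -0.39 (-0.26 with median centring, adjusted p = 0.225) and Rgs5 at 0.54.

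Epithelial markers went the other way. The 16 colon epithelium markers were all well above background in Cy5 and Cy3 on every array. Of these, 8 were higher and 0 lower (median 0.58), which is 50% and 0%, against 25.7% and 19.6% of all genes. They were led by Muc2 at 1.63 and Krt18 at 1.38, whose other probe was at 0.25. Their summed normalized signal ran from 120099 to 228209 in Cy5 and from 72566 to 126907 in Cy3. For leukocyte markers the ranges were 6809 to 13223 and 19648 to 26093, for fibroblast markers 15877 to 28658 and 25690 to 43038, for erythrocyte and platelet markers 8456 to 15328 and 26713 to 43503, for pericyte and smooth muscle markers 13277 to 26313 and 21149 to 30917, and for the other endothelial markers 10060 to 14392 and 9920 to 14060. These ranges overlapped between channels for endothelial, fibroblast, pericyte and epithelial markers, and those of leukocyte and of erythrocyte and platelet markers did not. They leave out the pairing of the channels on each array, so an overlap does not show equal levels. With median centring the median of all genes was 0.25. Fibroblast markers then had 9 lower and 1 higher of 10, leukocyte markers 7 lower and 2 higher of 12, and 16 of 16 epithelial markers were higher. Erythrocyte and platelet markers had 4 lower and 1 higher of 8, and pericyte and smooth muscle markers 2 lower and 3 higher of 9 (median -0.09). The part of the tissue's makeup in the member ratios was not tested.

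**Figure D4:**
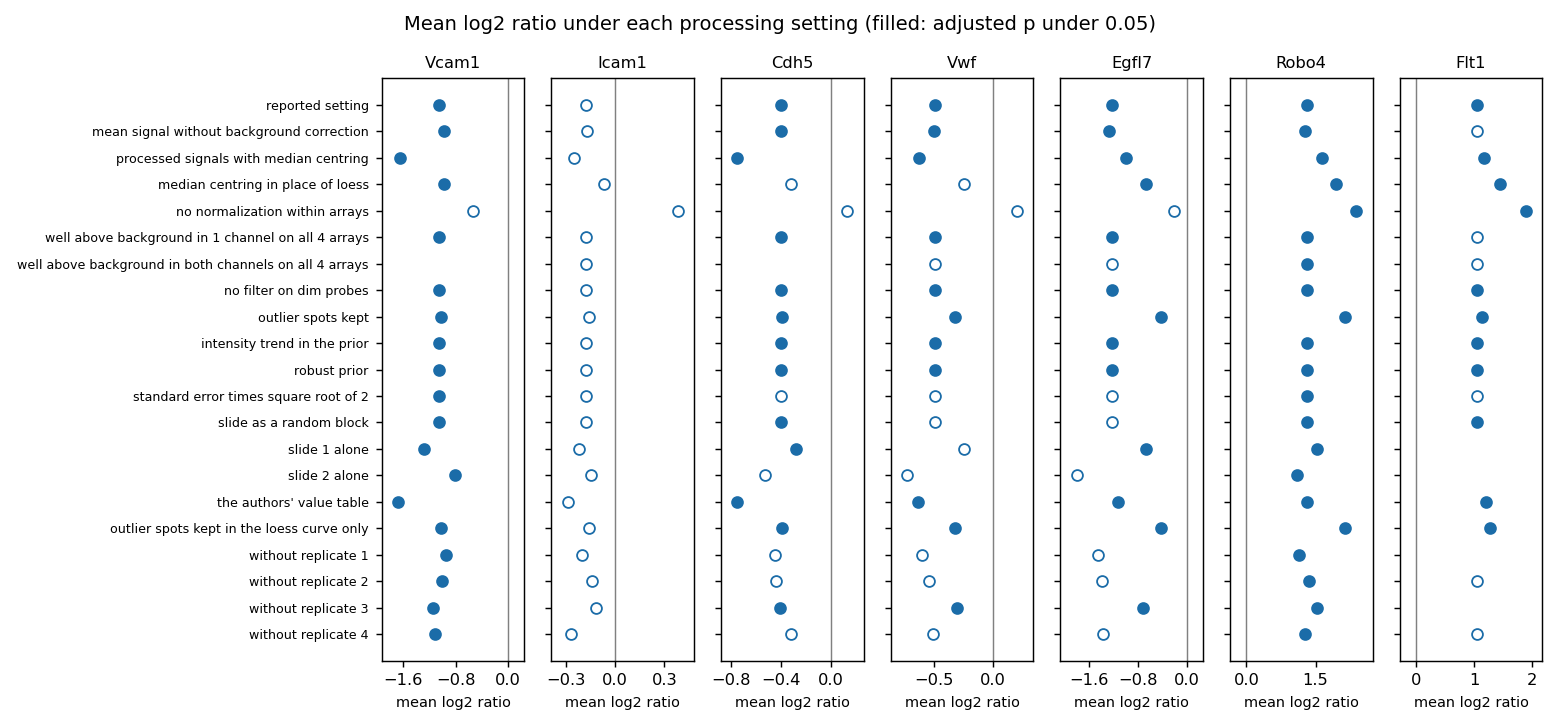
Mean log2 ratio of the 7 tested members under each processing setting, with filled points for an adjusted p under 0.05 and no point where a probe was not tested. Robo4 is filled throughout, from 1.10 to 2.38, Icam1 is open throughout, and Cdh5 and Vwf cross 0 with no normalization, at 0.13 and 0.20.

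Over the settings in which each was tested, Robo4 passed in 20 of 20 alternatives, Vcam1 in 18 of 19, Cdh5 in 12 of 19, Egfl7 in 12 of 20, Flt1 in 10 of 16, Vwf in 10 of 20 and Icam1 in 0 of 20. The tested members did not share 1 direction. By each gene's brightest probe, Robo4 and Flt1 lay above 0 in every setting in which they were tested, and Vcam1 and Egfl7 below it. By that probe Cdh5 and Vwf lay below 0 in all but the setting without normalization. The dim second probes of Flt1 and Cdh5 gave -0.10 and 0.05 in the fit with no filter on dim probes.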

How the data were processed

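The 10 genes and the 11 gene lists were chosen with earlier results of these data known, so no count over them is independent support. Per the file headers, the deposited files hold the intensity of every spot as Agilent Feature Extraction (9.5.3.1) read it, and place probes on rn3. The submitters' processing notes name limma. In the value table that the authors deposited, values are log2 ratios, used as an alternative only.

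From the mean signals, background was corrected with normexp (offset 50), arrays were normalized by loess (limma 3.58.1, R 4.3.3) with control and outlier-flagged spots at weight 0, and spots of a probe were averaged. A probe was tested if well above background in 1 channel on at least 3 arrays, with at least 2 values. Each probe's mean was tested against 0 (lmFit, eBayes), with p-values adjusted over 18869 probes by Benjamini-Hochberg at 0.05. The fit was tested on simulated data. A gene is its brightest tested probe. Symbols came from RefSeq GRCr8. Named are all members, the 2 highest and 2 lowest called genes of each list, and the 3 nearest patterns of 2 members. A gene that this rule takes is not reported here. Of 41012 probes, 20883 stayed unnamed. Alternatives covered background, normalization, filters, flagged spots, priors, slide, arrays left out, and a wider standard error. Keeping flagged spots in the loess curve alone, the promoter letters, the run of G and the hexamers were chosen after seeing the data.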

Additional observations from a re-analysis of the deposited data

Results flagged for a closer look

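In 2 of 17 sets of 4 array values checked, 1 array lay apart from the other 3. Chance alone marks about 1 in 20 such sets. For Egfl7 the gap below the other arrays, at array 3, was 0.8887 of the whole range of its log2 ratios. For the untested Vwf probe, whose ratios were -0.03, -0.02, -0.13 and -0.66, the gap at array 4 was 0.8294 of the range, on signals close to background.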

How the results depend on the processing

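Of 18869 probes tested 8886 (47.1%) were called. A filter that required Cy5 and Cy3 well above background on each of the 4 arrays gave 4551 of 13119 (34.7%). With the standard error times the square root of 2 there were 2180 of 18869 (11.6%), and on slide 2 alone 1749 of 14485 (12.1%). Keeping outlier spots gave 13127 of 20409 (64.3%), and no filter on dim probes 11942 of 39472 (30.3%). On slide 1 alone there were 10765 of 18329 (58.7%). Without 1 array the calls ran from 3410 of 16383 (20.8%) to 8964 of 18660 (48.0%). Members called higher numbered 2 of 7 tested. They numbered 1 with no background correction, and with 1 channel required well above background on all 4 arrays. They also numbered 1 with both channels required, with the wider standard error, on slide 1 alone, on slide 2 alone and without any 1 array. Members called lower numbered 4, and 5 with outlier spots kept, 2 with median centring in place of loess, 0 without normalization, 0 with that filter, 1 with the wider standard error, 2 with the slide as a random block, 1 on slide 2 alone and 1 to 4 without 1 array. Without normalization Icam1 (0.38), Cdh5 (0.13) and Vwf (0.20) changed sign, and the median of all probes lay at 0.71 against -0.02. Median centring put that median at 0.20 and split the calls into 6852 higher and 1839 lower, against 4597 and 4289. Each tested member had 1 tested probe, so a median over tested probes could not differ; the dim second probes of Flt1 and Cdh5 gave -0.10 and 0.05. With 4 arrays and no dye exchange, dye effects cannot be told apart from the treatment, and signal near background limits Vcam1, Cdh5, Sele and Pecam1.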
